A study of Mus musculus with 2 samples.

Results

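The 37 genes described here encode nuclear-encoded subunits of the mitochondrial respiratory chain. They were taken as a list of subunit symbols and found in the deposited tables through their RefSeq accessions. All 37 were found, each by 1 accession, among 26440 genes in all. By complex they comprised 19 subunits of complex I, 4 of complex II, 6 of complex III and 8 of complex IV. Ndufa4, named for complex I, was counted with complex IV, of which it is a subunit. The study sequenced liver transcripts of BALB/c mice on day 11 after birth. There was 1 library labelled WT and 1 labelled SRSF2-/-, called the knockout library here, and the design text describes the loss of SRSF2, a splicing factor, as specific to the liver. The sources used here give neither the driver of the deletion nor the deleted stretch, and they do not say how many animals stand behind a library. Neither genotype has a replicate library and nothing could be tested between them, so every difference below describes these 2 libraries.

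The respiratory chain sits in the inner mitochondrial membrane and passes electrons from food-derived NADH and succinate to oxygen. Complex I oxidises NADH and complex II oxidises succinate, and both reduce ubiquinone. Complex III passes the electrons on to cytochrome c, and complex IV hands them to oxygen. Complexes I, III and IV pump protons, and ATP synthase uses the resulting gradient. Most subunits are encoded in the nucleus and a small set in mitochondrial DNA. Mitochondrially encoded subunits were not matched by name and were not analysed here. Hepatocytes are rich in mitochondria, and their urea synthesis, gluconeogenesis and fatty acid oxidation depend on this chain.

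Promoters of respiratory chain genes are known for binding sites of the transcription factor NRF1 and of ETS factors such as GABPA. RefSeq promoter windows of build GRCm38.p6, running from 250 bases before to 50 bases after the annotated start, were at hand for 27 of the 37 members. The letters GCGCNTGCG, the core of an NRF1 site read on both strands, occurred in windows of 7 of these 27 members (25.9%). They occurred in 15.0% of 9438 tested genes with a window and in 6.31% of all windows of this length in the table. The members with the highest and the lowest log2((knockout FPKM + 1) / (wild-type FPKM + 1)) are shown in full up to the start, to set their promoters side by side. Capitals mark the NRF1 letters, the ETS letters CCGGAAG and the letters TGACGTCA of a cyclic AMP response element, on either strand.
Cox6a1, chr5:115348959-115349208, minus strand: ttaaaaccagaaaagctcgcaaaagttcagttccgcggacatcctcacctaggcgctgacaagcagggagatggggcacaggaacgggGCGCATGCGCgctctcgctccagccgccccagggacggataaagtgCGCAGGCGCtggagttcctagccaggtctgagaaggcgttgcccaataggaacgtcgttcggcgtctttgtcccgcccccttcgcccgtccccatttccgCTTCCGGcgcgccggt
Uqcrfs1, chr13:30545317-30545566, minus strand: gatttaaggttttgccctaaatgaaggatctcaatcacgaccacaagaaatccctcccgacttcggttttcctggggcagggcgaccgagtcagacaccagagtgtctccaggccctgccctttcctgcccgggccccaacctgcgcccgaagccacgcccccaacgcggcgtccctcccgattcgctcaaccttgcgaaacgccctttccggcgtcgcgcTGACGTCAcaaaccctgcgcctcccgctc

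The Cox6a1 stretch held NRF1 letters at 2 places and ETS letters at 1, while the Uqcrfs1 stretch held neither and had 1 cyclic AMP response element match. Short windows around NRF1 matches in other members are given with the match in capitals and 10 bases on each side. They are shown for the bases around the match and its distance from the start, since the letters in capitals follow from the search.
Ndufa5, 25 bases before the upstream of 2 annotated starts, chr6:24527697-24527725, minus strand: gtgtgagctgCGCAGGCGCaaatctacct
Ndufa8, 9 bases before the start, chr2:36049329-36049357, minus strand: tcgctggagaCGCATGCGCagatggtacc
Ndufb10, 26 bases before the start, chr17:24724431-24724459, minus strand: ctgcccactaCGCAGGCGCagctgtcacc
Sdha, 97 bases before the start, chr13:74350319-74350347, minus strand: gtttacagggCGCAGGCGCaccaccactc
Sdha, 54 bases before the start, chr13:74350276-74350304, minus strand: gggcgtgttgCGCAGGCGCagaatcttcc
Sdhd, 78 bases before the start, chr9:50603909-50603937, minus strand: cgctggggtgCGCACGCGCggtggcagcg
Uqcrc1, 31 bases after the start, chr9:108936668-108936697, plus strand: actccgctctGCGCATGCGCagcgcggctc

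Sdha held another match 9 bases before the start, and Ndufa8 and Uqcrc1 also held more than the one shown. Members with these letters had log2 knockout to wild-type ratios from -0.23 for Sdha to 0.70 for Cox6a1, across most of the members' range. The ETS letters occurred in windows of 5 of 27 members (18.5%) and in 19.9% of tested genes. The YY1 letters ATGGCGGC occurred in 4 members (Ndufa9, Ndufb5, Ndufs4 and Ndufs7, 14.8%) and in 5.79% of tested genes. Other letters searched on both strands are given with the share of members and then that of tested genes. TCAAGGTCA for estrogen-related receptors occurred in 1 member (3.70% against 0.286%) and GGGGCGGGG for the Sp1 family in 3 (11.1% against 24.3%). CCAAT occurred in 5 members (18.5% against 42.6%) and TATAAA in 1 (3.70% against 9.78%). TGACGTCA occurred in 2 members (7.41% against 3.45%) and CACGTG in 1 (3.70% against 11.7%). No match of one of these sets of letters overlapped a match of another in the members' windows. A match is a description of the letters and shows neither binding nor a cause.

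Both libraries had similar depth, with 22407743 reads on annotated transcripts for WT and 22111605 for SRSF2-/-. Levels are the authors' FPKM, which scale reads by transcript length and library size. Srsf2, the targeted gene, had 27.9 FPKM in the library labelled WT and 11.8 FPKM in the other, 0.421 of that level (0.388 to 0.457). Most genes had higher values in the knockout library. Over 12477 genes with at least 1 FPKM in either library, called the tested genes, the median log2((knockout FPKM + 1) / (wild-type FPKM + 1)) was 0.55, a ratio of 1.47. The 20 most abundant genes took 36.6% of all reads in the wild-type library and 20.8% in the other. Hepatocyte markers were abundant in both libraries, with Alb, which encodes albumin, at 50399 and 25492 FPKM. In liver tissue, fewer cells of a type and less RNA per cell cannot be told apart.

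Respiratory chain genes were abundant in both libraries and differed little between them. In the wild-type library they ran from 15.8 FPKM (Ndufs4) to 677 FPKM (Uqcrq), with a median of 75.2 FPKM, and the lowest of them lay above 81.2% of the tested genes. In the knockout library they ran from 14.6 FPKM (Ndufs1) to 1036 FPKM (Cox6a1), with a median of 91.0 FPKM. Reads per member and library ranged from 343 to 14481, so each ratio was measured with small counting error. On the log2(FPKM + 1) scale 0 of the 37 members passed 2-fold upward and 0 passed it downward. Over all tested genes the shares were 19.2% upward and 2.95% downward. Of the 2558 tested genes whose mean FPKM lay within the members' range of 17.7 to 838 FPKM, 20.9% were higher and 7.0% lower by this rule. At a 1.5-fold rule, 3 members were higher and 0 lower, beside 47.4% and 5.51% of all tested genes.

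**Figure D1:**
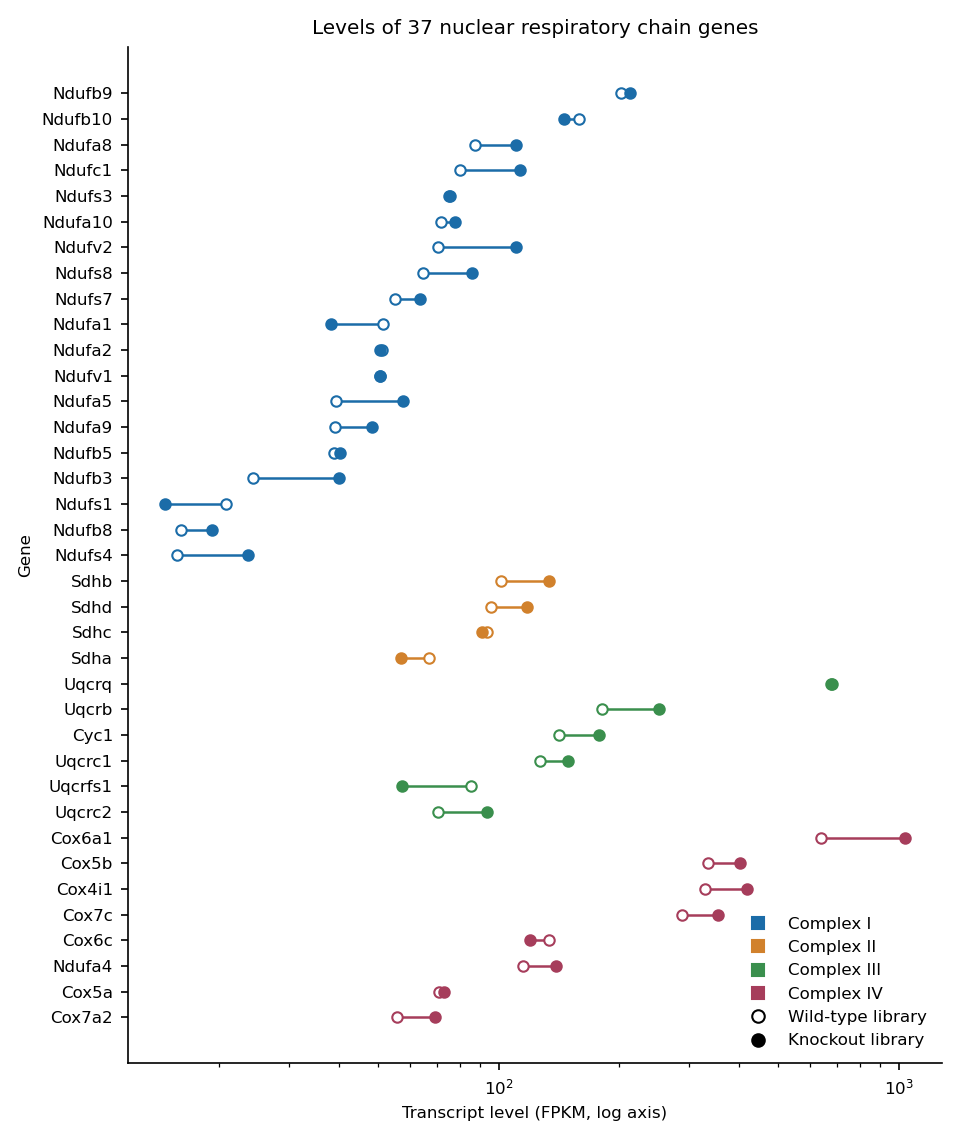
Level of each of the 37 genes in FPKM on a log axis, with an open circle for the wild-type and a filled circle for the knockout library, grouped by complex and ordered by wild-type level. The pairs of circles lie less than 2-fold apart, and Uqcrq and Cox6a1 hold the highest levels.

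The median log2 ratio of the members was 0.26, against 0.55 over all tested genes and 0.53 over genes at the same levels, so it was -0.29 relative to all tested genes, below 0 where it was above 0 as deposited. The median of all tested genes depends on the treatment of low values: it was 0.30 with a pseudocount of 5 FPKM, close to the members' 0.26, and 0.10 with no filter, below the members. The median of genes at the same levels stood at 0.47 with the pseudocount of 5 FPKM and 0.53 with no filter. A higher value in the knockout library was found for 28 of 37 members, beside 84.5% of all tested genes and 75.9% of those at the same levels. That number was 4 of 37 relative to all tested genes and 13 of 37 with library sizes that leave out the 20 most abundant genes. A log2 ratio below the median of all tested genes was found for 33 of 37 members (89.2%), beside 51.8% of genes at the same levels. Ranges in parentheses after a ratio are 95% limits by the exact Clopper-Pearson method on the reads, and they cover counting error only, since amplified reads are not independent molecules. The interval lay above 1 for 24 members and below 1 for 6, and it held 1 for 7 (76.8% and 11.1% of all tested genes lay above and below). Set against the median ratio of all tested genes, it lay below for 31 members, above for 2 and held it for 4. That median, 1.47, was taken with 1 FPKM added to each value and the intervals without, so the 2 scales differ. Of all tested genes 28.7% lay below and 45.3% above, and of genes at the same levels 44.8% and 42.7%.

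After each gene's log2 ratio was taken relative to the median of all tested genes, 2 members were at least 2-fold lower, Uqcrfs1 and Ndufs1, and 0 were higher. By the same rule 6.66% of all tested genes were lower and 5.67% higher, and 13.6% and 7.7% of genes at the same levels. The members' log2 ratios ran from -0.56 to 0.70 with an interquartile range of 0.39, against 0.67 for all tested genes and 0.89 for those at the same levels. Some lists described below were as narrow or narrower, with 0.29 for the proteasome, 0.33 for the cytosolic ribosome, 0.35 for ATP synthase and 0.39 for import factors and carriers. Others were wider, such as the mitochondrial ribosome (0.52) and the citric acid cycle (0.80). A narrow spread was thus not particular to the members. The order of levels was largely the same in both libraries, with Spearman's rho of 0.960 across the 37 members and 0.881 across 12477 tested genes. These points share libraries and depth, and rho is given as a description.

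**Figure D2:**
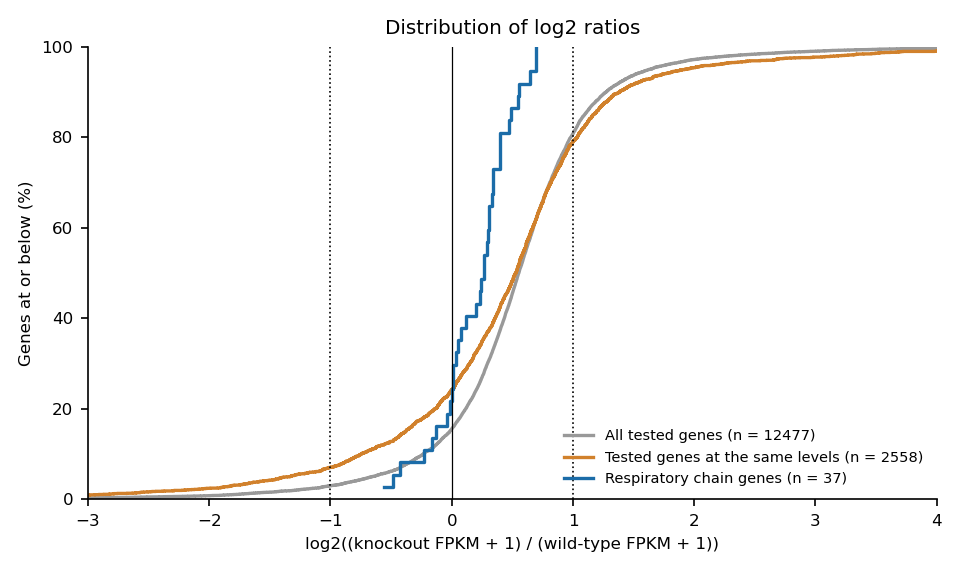
Share of genes in percent (vertical axis) at or below each log2 ratio (horizontal axis), for all 12477 tested genes, the 2558 tested genes at the members' levels and the 37 members, with dotted lines at 2-fold. The curve of the members stays within the 2-fold lines and crosses the middle at 0.26, to the left of the other curves at 0.55 and 0.53.

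Members still differed from one another by more than counting error. The typical interval had a half-width of 0.083 on the log2 scale, and the widest 0.198. All members' reads together gave a ratio of 1.18. The intervals of 9 members held this value, those of 13 lay above it and those of 15 below. Members together took 0.463% of the wild-type reads (0.460 to 0.466) and 0.546% of the knockout reads (0.543 to 0.549), but 0.730% and 0.690% when the 20 most abundant genes were left out of the total, which turns the order. Log2 ratio followed neither level nor transcript length closely across the 37 members, with Spearman's rho of 0.168 and -0.093, given as descriptions.

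**Figure D3:**
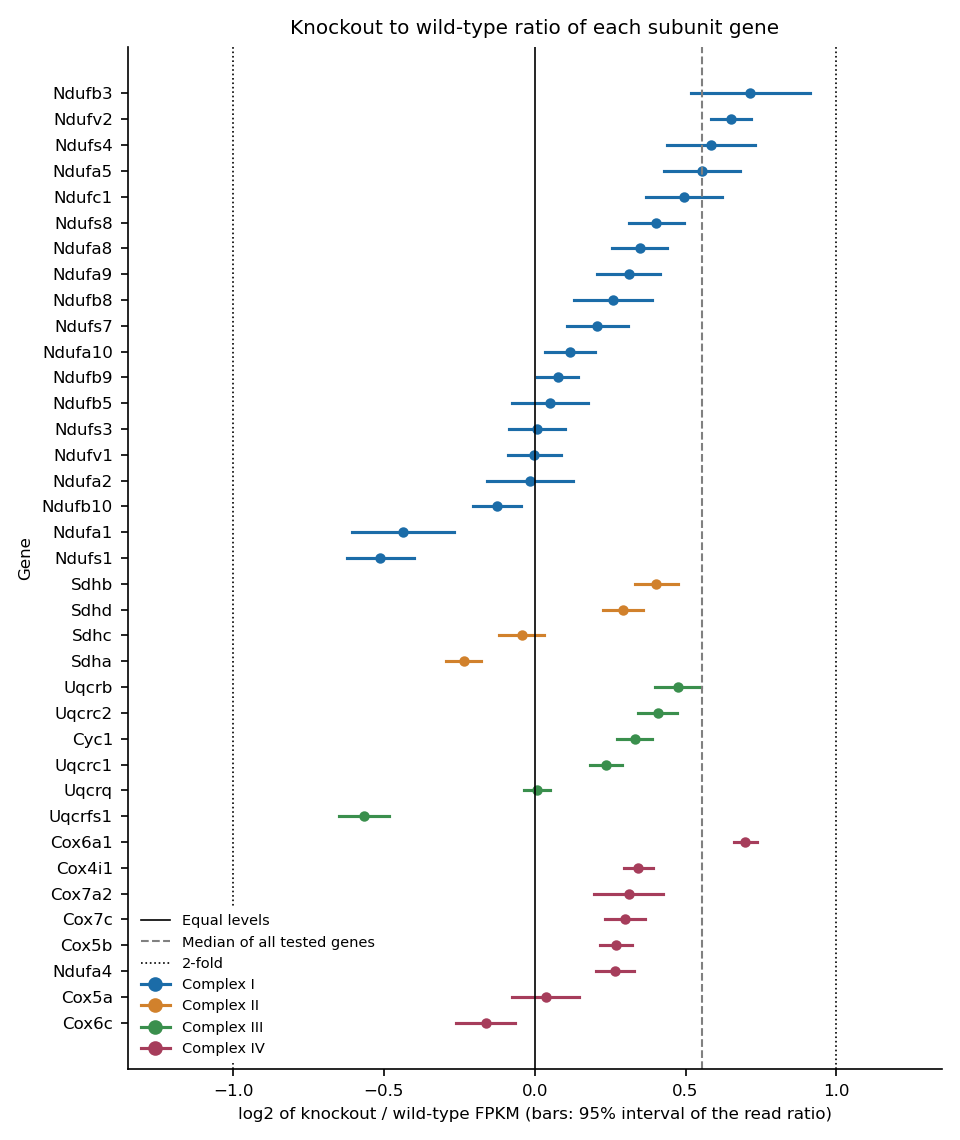
Log2 of the knockout to wild-type FPKM ratio of each member, with bars for the 95% interval of the read ratio, by complex. The solid line marks equal levels, the dashed line the median of all tested genes at 0.55 and the dotted lines 2-fold. The dashed line was computed with 1 FPKM added to each value, the points and bars without. Uqcrfs1, Ndufs1 and Ndufa1 lie lowest and Ndufb3, Cox6a1 and Ndufv2 highest.

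Over the 19 members of complex I, the NADH dehydrogenase, the median log2 ratio was 0.20 as deposited and -0.35 once centred on all tested genes. With library sizes that leave out the 20 most abundant genes, the medians of all 4 complexes likewise lay below 0. Its highest ratios belonged to Ndufb3, a small subunit of the membrane arm, with 24.3 (wild-type) and 39.9 FPKM (knockout), 1.64-fold higher (1.43 to 1.88). Ndufv2, an iron-sulfur subunit of the NADH-oxidising tip, stood at 70.4 and 110.5 FPKM, 1.57-fold higher (1.4995 to 1.64). Ndufs4, an accessory subunit whose loss in people causes Leigh syndrome, stood at 15.8 and 23.6 FPKM, a log2 ratio of 0.56, with a read ratio between 1.36 and 1.66. These 3 were the complex I members above the median of all tested genes on the log2(FPKM + 1) scale. The interval of Ndufv2 alone among them lay wholly above that median, a ratio of 1.47. The intervals carry no added FPKM, so the scales differ. With a pseudocount of 0.1 FPKM the median of all tested genes was 0.68, above the 0.65 of Ndufv2.

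At the low end stood Ndufs1, the largest complex I subunit and a carrier of iron-sulfur clusters, at 20.9 and 14.6 FPKM, 0.701 of the wild-type level (0.649 to 0.757). Ndufa1, an X-linked accessory subunit of the membrane arm, stood at 51.5 and 38.1 FPKM, 0.739 of the wild-type level (0.657 to 0.831). Ndufb10, a membrane arm subunit, stood at 159 and 146 FPKM, 0.916 of the wild-type level (0.867 to 0.968). Both other abundant members had values above the wild-type level, Ndufb9 at 202 and 213 FPKM and Ndufa8 at 87.1 and 111 FPKM. Ndufs1 and Ndufa1 lay at percentiles 6.28 and 6.94 of the tested genes' log2 ratios. The other 11 complex I members had log2 ratios between -0.01 (Ndufa2) and 0.54 (Ndufa5).

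Subunits of complex I can be grouped into the N module, which oxidises NADH, the Q module, which reduces ubiquinone, and the proton-pumping membrane arm. The 5 members of the N module had a median log2 ratio of 0.00 and ran from -0.48 to 0.64, so this module held both Ndufs1 and Ndufv2. The 5 members of the Q module had a median of 0.30 and ran from 0.01 to 0.54. The 9 members of the membrane arm had a median of 0.12 and ran from -0.43 to 0.69. These ranges overlap. Relative to all tested genes the 3 medians were -0.55, -0.25 and -0.44.

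Complex II, which is also succinate dehydrogenase of the citric acid cycle, is encoded wholly in the nucleus, and the median over its 4 members was 0.12 on the log2 scale and -0.43 once centred. Sdha, the flavoprotein that oxidises succinate, stood at 67.0 and 56.9 FPKM, 0.849 of the wild-type level (0.815 to 0.885). Sdhb, the iron-sulfur subunit bound to it, stood at 101 and 134 FPKM, 1.32-fold higher (1.26 to 1.39). Among the membrane anchors, Sdhc stood at 93.7 and 91.0 FPKM and Sdhd at 96.0 and 118 FPKM. The intervals of Sdha and Sdhb did not overlap and lay on opposite sides of 1, and that of Sdhc, from 0.922 to 1.02, held 1.

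Complex III, the cytochrome bc1 complex, had a median of 0.28 (-0.27 relative to all tested genes) over 6 members, and held the lowest ratio of all 37. Uqcrfs1, the Rieske iron-sulfur protein that takes electrons from ubiquinol, stood at 85.2 and 57.5 FPKM, 0.675 of the wild-type level (0.638 to 0.715). It lay at percentile 5.67 of the tested genes. Cyc1, cytochrome c1, to which the Rieske protein passes its electrons, had 141 and 178 FPKM, a ratio of 1.26 (1.21 to 1.31). The core proteins Uqcrc1 and Uqcrc2, which face the matrix, had 127 and 149 FPKM (Uqcrc1) and 70.7 and 93.8 FPKM (Uqcrc2). The small subunit Uqcrb, at the ubiquinone-binding region, stood at 181 and 252 FPKM, 1.39-fold higher (1.32 to 1.46). Uqcrq, the most abundant of the complex, was nearly equal at 677 and 681 FPKM.

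Complex IV, cytochrome c oxidase, had a median of 0.28 (-0.27 relative to all tested genes) over 8 members and the highest summed level, 1965 FPKM in the wild-type library and 2610 FPKM in the other. Cox6a1, the non-muscle form of a regulatory subunit, had 639 and 1036 FPKM, 1.62-fold higher (1.58 to 1.66) and the largest ratio of the 37 members on the log2(FPKM + 1) scale. Cox4i1, the common form of a subunit through which ATP regulates the enzyme, stood at 329 and 417 FPKM, 1.27-fold higher (1.23 to 1.31). Cox5b, a zinc-binding subunit, stood at 334 and 402 FPKM, with the limit that a Cox5b pseudogene is annotated and reads shared with it cannot be told apart here, and Cox7a2, the non-muscle form of a small membrane subunit, at 55.8 and 69.3 FPKM. Ndufa4 stood at 115 and 139 FPKM and Cox7c at 287 and 353 FPKM. Cox5a, a subunit on the matrix side, was nearly equal at 71.2 and 73.0 FPKM, and its interval of 0.950 to 1.11 held 1. Cox6c stood lower in the knockout library at 134 and 120 FPKM, 0.894 of the wild-type level (0.834 to 0.957).

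By reads, complex IV took a 1.32 times larger share of the knockout library (1.30 to 1.34), complex I 1.15 times (1.13 to 1.17), complex III 1.12 times (1.10 to 1.14) and complex II 1.06 times (1.03 to 1.08). Without Cox6a1 the value of complex IV was 1.195 (1.17 to 1.22). When the 20 most abundant genes were left out of the totals, the values were 0.919 for complex I, 0.847 for complex II, 0.896 for complex III and 1.05 for complex IV, so complexes I, II and III then took smaller shares of the knockout library. Ranges of the single members overlapped between all 4 complexes, and a difference between complexes was not tested, since members of a complex are not replicates.

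Flavin, iron-sulfur and haem groups do part of the redox work in the chain. They are carried by 11 members (Ndufs1, Ndufs7, Ndufs8, Ndufv1, Ndufv2, Sdha, Sdhb, Sdhc, Sdhd, Uqcrfs1 and Cyc1), counting the haem-binding anchors of complex II. This grouping was drawn up after the values were seen. Of these 11, 10 lay below the median of all tested genes, and so did 23 of the other 26. The medians were 0.20 and 0.27. Both members at least 2-fold lower relative to all tested genes, Ndufs1 and Uqcrfs1, carry iron-sulfur clusters, and so does Ndufv2 near the high end.

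Levels of different genes depend on the transcript length that the authors used. The length that follows from a member's reads per FPKM was within 1.5 times the longest GENCODE transcript paired with its accession for 31 of 37 members. It was 3.15 times that length for Ndufb8 and 2.01 times for Ndufa4, which lowers their FPKM beside the others. It was 0.326 times for Uqcrq, 0.373 for Sdhc, 0.601 for Ndufa10 and 0.654 for Cox5b. The reference was the longest paired transcript, so these values do not show whether the authors' length was too short. The ratio between the libraries does not depend on this length.

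Other nuclear subunits of the chain, from lists written with earlier results of these data known, had a median log2 ratio of 0.30 over 25 genes and ran from -0.69 to 1.07. Of these, 8 lay above the median of all tested genes. The other 17 tested complex I subunits had a median log2 ratio of 0.26, with 0 at least 2-fold higher and 0 lower. Ndufb4 stood at 103 and 204 FPKM, 1.97-fold higher (1.84 to 2.11), Ndufa6 at 146 and 274 FPKM, and Ndufab1, the mitochondrial acyl carrier protein and the most abundant of this list, at 160 and 270 FPKM. Ndufb2, named after its values were seen, stood at 34.4 and 20.9 FPKM, 0.608 of the wild-type level (0.520 to 0.709), a ratio below that of each member, and it was at least 2-fold lower relative to all tested genes. The 3 other complex III subunits with cytochrome c had a median of 0.31 over 4 genes. Cycs, which encodes cytochrome c, stood at 18.4 and 27.2 FPKM, and Uqcr11 at 561 and 606 FPKM. Of 4 other complex IV genes, Cox7a2l was at least 2-fold higher at 39.3 and 83.4 FPKM. Its product has a described role in joining complexes III and IV into supercomplexes, which was not examined in these mice. Cox6b1, the most abundant of these 4, stood at 342 and 504 FPKM. Members and these 25 genes together had 1 of 62 at least 2-fold higher and 0 lower as deposited, and 0 and 3 after centring.

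ATP synthase genes had a median of 0.21 over 16 genes, with 1 at least 2-fold higher and 0 lower as deposited, and 1 and 2 after centring. Atpif1, the inhibitor that stops ATP synthase from running in reverse, stood at 17.9 and 66.0 FPKM, 3.68-fold higher (3.39 to 4.01). Atp5g3, one of several genes for the same c-ring subunit, stood at 235 and 120 FPKM, 0.510 of the wild-type level (0.485 to 0.536). Atp5b, the catalytic beta subunit, stood at 570 and 676 FPKM. Assembly factors had medians of 0.41 for complex I (16 tested, 0 at least 2-fold higher), 0.46 for complexes II and III (10 tested, 1 higher) and 0.44 for complex IV (22 tested, 3 higher), with 0 lower in each. After centring the numbers higher were 0, 0 and 1, with 0 lower in each. Among them Cox19, a copper-related factor of complex IV assembly, stood at 12.9 and 43.1 FPKM, and Uqcc2, a complex III assembly factor, at 44.2 and 94.1 FPKM.

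The citric acid cycle, which feeds NADH and succinate to the chain, had a median of 0.28 over 14 genes, close to that of the members, but a wider range. It held 4 genes at least 2-fold higher and 0 lower, and 1 and 2 relative to all tested genes. Cs, the citrate synthase that opens the cycle, stood at 24.8 and 95.2 FPKM, 3.84-fold higher (3.65 to 4.04). Mdh2, the malate dehydrogenase that closes it, stood at 120 and 290 FPKM, 2.41-fold higher (2.32 to 2.50). Suclg2 and Suclg1, subunits of succinyl-CoA synthetase named after their values were seen, had 44.8 and 30.4 FPKM (Suclg2) and 94.5 and 65.2 FPKM (Suclg1).

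Dehydrogenases that feed electrons to ubiquinone, counted with the electron transfer flavoprotein and its oxidoreductase, had a median of -0.18 over 8 genes, below 0 as deposited and relative to all tested genes (-0.73), with 0 at least 2-fold higher and 1 lower as deposited and 0 and 4 after centring. The 1 gene lower as deposited was Prodh, the proline dehydrogenase, at 2.79 and 0.585 FPKM (169 and 35 reads). Prodh reached 1 FPKM in the wild-type library only, so the filter favoured a lower knockout value for it. Sqor, the sulfide quinone oxidoreductase, stood at 35.3 and 17.9 FPKM. Etfb, a subunit of the electron transfer flavoprotein of fatty acid oxidation, stood at 203 and 225 FPKM. Coenzyme Q synthesis had a median of 0.57 over 13 genes, with 3 at least 2-fold higher and 1 lower as deposited but 0 and 2 after centring. This median was 0.33 with a filter of 5 FPKM and 0.24 with a pseudocount of 5 FPKM. The gene lower as deposited was Coq8a, an atypical kinase-like protein needed for ubiquinone synthesis, at 33.8 and 6.85 FPKM, 0.203 of the wild-type level (0.187 to 0.220). Coq3, a methyltransferase of the pathway, stood at 2.86 and 8.34 FPKM, and Coq9, the most abundant, at 45.6 and 40.9 FPKM.

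Regulators of mitochondrial biogenesis had a median of 0.31 over 17 tested genes, with 1 at least 2-fold higher and 0 lower as deposited, and 0 and 0 after centring. Gabpb1, the partner of the ETS factor GABPA, stood at 2.66 and 8.30 FPKM, 3.12-fold higher (2.70 to 3.61). Nrf1, the gene of the factor whose letters were searched above, stood at 2.25 and 5.10 FPKM, 2.27-fold higher as a plain ratio (1.93 to 2.68) and 0.91 on the log2(FPKM + 1) scale. Yy1 stood at 12.8 and 19.1 FPKM. Ppargc1a, the coactivator PGC-1alpha, named after its values were seen, stood at 1.63 and 1.78 FPKM, and its interval of 0.940 to 1.27 held 1.

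Other large sets of housekeeping complexes lay nearer the median of all tested genes. Cytosolic ribosomal proteins had a median of 0.61 over 75 genes, of which 4 passed 2-fold upward and 0 downward. Their most abundant gene, Rpl41, stood at 1178 and 2038 FPKM. Proteasome subunits had a median of 0.72 over 37 genes, with 6 higher and 0 lower, led by Psmd8 at 57.7 and 380 FPKM. Within mitochondria, ribosomal proteins had a median of 0.56 over 78 genes, with 6 higher and 0 lower, and import factors and carriers had a median of 0.61 over 21 genes, with 2 higher and 0 lower. Those 2 were Timm10, an import chaperone, at 6.17 and 26.3 FPKM, and Slc25a4, the muscle-type ADP/ATP carrier, at 39.4 and 150 FPKM. After centring, 1 proteasome gene was at least 2-fold higher and 0 lower, against 0 and 0 for the cytosolic ribosome, 0 and 1 for the mitochondrial ribosome and 2 and 0 for import factors and carriers. The members' median of 0.26 lay below each of these medians, and no test of the difference was possible with 1 library per genotype. ATP synthase stood lower still, with a median of 0.21 and 15 of 16 genes below the median of all tested genes. A low position was thus not particular to the members.

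**Figure D4:**
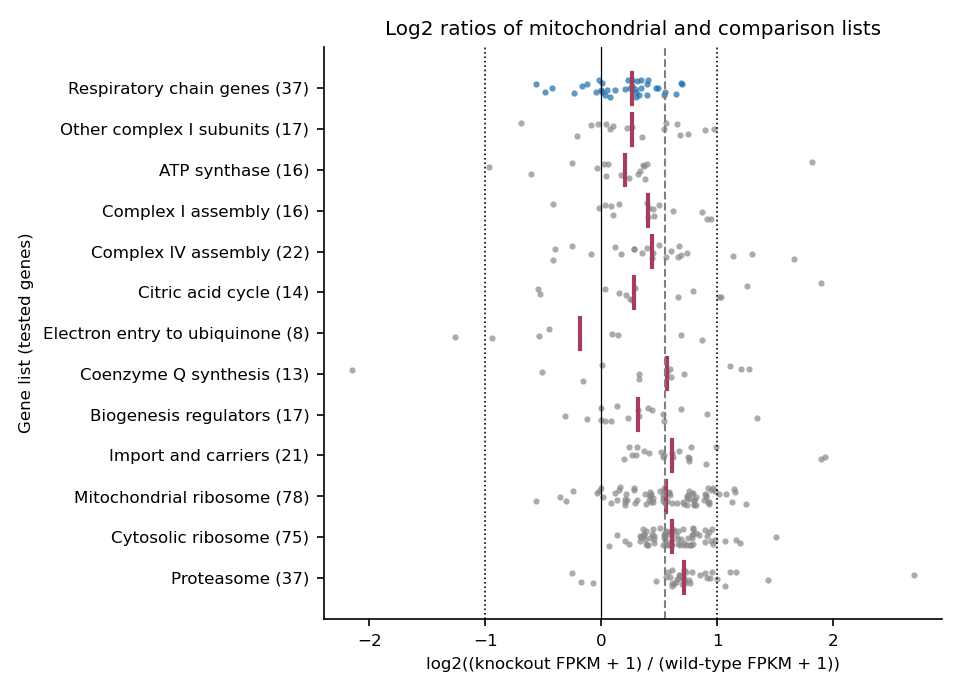
Log2 ratio of each tested gene (points) and the median (red bar) of the 37 members and of 12 other gene lists, with the number of tested genes beside each name. The solid line marks 0, the dashed line the median of all tested genes and the dotted lines 2-fold. The members lie within the 2-fold lines, and ribosome and proteasome medians lie near or above the dashed line.

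Markers of other tissues also differed between the libraries, and their part in the members' values was not tested. Of 11 matched skeletal muscle markers, 7 had 0 reads in the wild-type library while all 11 had reads in the knockout library, and their summed level was 0.195 and 93.7 FPKM. Muscle-type forms of complex IV subunits were also higher there. Cox6a2 had 6 and 98 reads (0.343 and 5.67 FPKM), Cox7a1 19 and 49 reads (1.96 and 5.11 FPKM) and Cox8b 0 and 10 reads. Together these 3 stood at 2.30 and 11.8 FPKM, against 936 and 1320 FPKM for their liver forms Cox6a1, Cox7a2 and Cox8a, so they made up 0.245% and 0.889% of the 6 genes' FPKM.

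Further tissue forms were scarce in both libraries. Cox4i2, the lung form, stood at 0.778 and 2.05 FPKM, Cox6b2, the testis form, at 3.35 and 7.48 FPKM, and Ndufa4l2, a hypoxia-induced relative of Ndufa4, at 2.86 and 6.38 FPKM. Cox7b2 and Cox8c had 0 reads in both. Brown fat markers summed to 51.5 and 103 FPKM, nearly all from Fabp4, which other fat cells also express. Ucp1, which defines brown fat, had 0 and 1 read, Cidea 2 and 27 and Plin1 0 and 49. Heart markers summed to 1.12 and 5.54 FPKM. Of these only Actc1 and Tnnt2 were tested. Both were at least 2-fold higher, and both reached 1 FPKM in the knockout library only. Actc1 had 0 and 99 reads and Tnnt2 22 and 85. Of the other heart markers, Myh6 had 0 reads in both libraries, Myl2 and Nppa 0 and 1 each, and Myh7 1 and 3. Myl7 had 5 and 3 and Tnni3 4 and 3, so the heart markers did not all go the same way. Exocrine pancreas markers summed to 7.27 and 564 FPKM (7 of 7 tested at least 2-fold higher) and macrophage markers to 248 and 630 FPKM (3 of 6). Bile duct markers summed to 34.0 and 102 FPKM (4 of 6), stellate cell markers to 138 and 393 FPKM (4 of 6), endothelial markers to 103 and 132 FPKM (0 of 6) and erythroid markers to 638 and 393 FPKM (0 of 6). Cpa1, Cela3b, Ctrb1, Prss2 and Clps of the pancreas and Krt7, Epcam and Cldn4 of the bile duct reached 1 FPKM in the knockout library only. For these genes the filter favoured a higher knockout value. After centring, 7 pancreas, 1 macrophage, 2 bile duct and 1 stellate cell marker were at least 2-fold higher, and 0 endothelial, erythroid or hepatocyte markers. At least 2-fold lower were then 3 erythroid and 6 hepatocyte markers. Hepatocyte markers summed to 78111 and 38139 FPKM, with 0 of 8 at least 2-fold higher and 3 lower. Alb made up most of these sums. As deposited, 6 of the 8 had lower values in the knockout library and 2 higher. The 2, named after their values were seen, were Hnf4a at 90.6 and 93.2 FPKM and Cps1 at 515 and 599 FPKM. All 8 lay below the median of all tested genes. How much each of these cell types contributed to the members' reads was not tested.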

How the data were processed

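Liver RNA of 1 WT and 1 SRSF2-/- BALB/c library was compared, grouped by the genotype in the labels. The deposited read counts and FPKM per RefSeq accession were made by the authors, per the file headers. Bowtie 0.12.2 and build mm9 are named in the submitters' processing notes. The counting program, annotation, strand and the treatment of reads that fit several places, such as processed pseudogenes of short subunit genes, were not found in the sources used here.

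Accessions were named through RefSeq tables of GRCm38.p6 and GENCODE M21 (23419 of 26449), and reads and FPKM were summed per gene. Differences were log2((knockout FPKM + 1) / (wild-type FPKM + 1)) with a filter of 1 FPKM in either library. Read ratio intervals were scaled by 1.01, the knockout to wild-type worth of 1 read in FPKM. Members, lists and rules were chosen with earlier results of these data known. Values are printed for the 3 highest, 3 lowest and 3 most abundant members of each complex and any past 2-fold, and for up to 2 extreme and the most abundant gene of other lists. Motifs and cofactor groups were chosen later. The computation was tested on simulated data. Computation used scipy 1.17.1 with numpy 2.4.6 in Python 3.11.15, tables pandas 2.3.3 and figures matplotlib 3.10.9.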

Additional observations from a re-analysis of the deposited data

How the results depend on the processing

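With 1 library per genotype nothing here was tested against the spread between animals. No paired analysis was possible because each genotype has 1 library. The signs of the medians depend on the scaling. After centring on the median of all tested genes the median log2 ratio was -0.29 for the members and -0.35, -0.43, -0.27 and -0.27 for complexes I to IV. With library sizes taken without the 20 most abundant genes these were -0.0545, -0.11, -0.19, -0.0380 and -0.0380, beside 0.29 for all tested genes. The shares of reads on members then became 0.730% and 0.690%, and the knockout over wild-type share of complexes I to IV became 0.919, 0.847, 0.896 and 1.05, the latter an alternative chosen after seeing the data. The cause was not tested. Members at least 2-fold lower numbered 2 after centring and 0 under the other settings. Members higher numbered 3 at 1.5-fold, 0 at 4-fold, and 1 when the other nuclear subunits were added, an alternative chosen after seeing the data. Pseudocounts of 0.1 and 5, no filter or 5 FPKM, TPM, reads scaled by library size, the highest accession and Ndufa4 in complex I moved the medians of the members and of the complexes by less than the typical counting error of 0.083. Some other medians moved further. With a pseudocount of 5 the members' median was 0.26, that of all tested genes 0.30, that of genes at the same levels 0.47, and that of coenzyme Q synthesis 0.24, and complex I and IV assembly factors had 0.25 and 0.29. With no filter the median of all tested genes was 0.10.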
